A study of Mus musculus with 23 samples.

Results

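Chemokines and their receptors were described in 23 RNA sequencing libraries of cells sorted from the mouse lower incisor. Members were the genes whose symbol begins with Ccl, Cxcl, Cx3cl, Xcl, Ccr, Cxcr, Xcr or Ackr and goes on with a number. Cx3cr1 does not match these symbols and was not a member. Of 61 matching symbols, 3 pseudogenes (Cxcl11, Ccl19-ps1 and Ccl19-ps3) were left out, which left 58 members among 54347 genes. Of these, 28 had a mean of at least 1 CPM (counts per 1000000, scaled with TMM factors) over the 4 groups, and 27 of the 28 are described singly.

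The cells came from the labial cervical loop, a fold of epithelium where the ever-growing incisor renews itself, of mice at postnatal day 2. All mice carried the Sox2-GFP reporter, in which the Sox2 promoter drives green fluorescent protein, and cells were sorted by fluorescence into Sox2-positive cells, named dental epithelial stem cells in the labels, and Sox2-negative cells. No other allele or treatment is given for any group, and the sort rests on the reporter alone. Batch A holds 6 libraries of each population, and batch B holds 7 of Sox2-positive and 4 of Sox2-negative cells; each batch had its own mice and its own day. Whether libraries of a batch came from different mice is not stated, so p-values measure the spread between libraries, which may be technical.

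Chemokines are small secreted proteins that guide migrating cells, and most act through receptors coupled to G proteins of the Gi class. Homeostatic chemokines such as Cxcl12 are made steadily by stromal cells and place leukocytes and progenitors in tissues, while inflammatory chemokines such as Ccl2 are induced and recruit monocytes, granulocytes and lymphocytes. Atypical receptors (Ackr genes) bind chemokines without that G-protein signal and remove or relocate them, so that Ackr3 takes up the same ligand, Cxcl12, that signals through Cxcr4.

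Total estimated counts ran from 2305778 to 9541443 per library, and 3 counts, taken as the lowest level shown, equalled 0.357 to 1.30 CPM. Floors and intervals cover counting error only. Sox2 itself averaged 7.27 ± 4.41 CPM (SD, n = 6) among Sox2-positive libraries of batch A and 16.4 ± 2.91 CPM (SD, n = 7) among those of batch B, against 0.0436 and 0.297 CPM in the Sox2-negative libraries. Summed levels of 10 epithelial markers were 5145 to 8382 CPM in Sox2-positive and 218 to 558 CPM in Sox2-negative libraries. The 10 mesenchymal markers summed to 12090 to 13749 CPM in batch A Sox2-negative, 1404 to 1999 CPM in batch A Sox2-positive, 11343 to 14401 CPM in batch B Sox2-negative and 629 to 715 CPM in their Sox2-positive counterparts. The 8 leukocyte markers summed to 750.0 to 927 CPM (batch A) and 235 to 332 CPM (batch B) when Sox2-negative, and to 3.56 to 14.3 CPM in Sox2-positive libraries. The Sox2-negative libraries thus held mesenchymal and blood-cell transcripts, and in such bulk samples fewer cells of a type and less RNA per cell cannot be told apart. Batch B libraries 1 and 2 had more genes with a count (23720 and 22831 in Sox2-negative, 20809 and 21110 in Sox2-positive libraries) than the other batch B libraries of their group (at most 20520 and 19859), and results that rest on them are given with and without them.

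The summed level of all 58 members was 545 ± 61.5 CPM (SD, n = 6) among Sox2-negative libraries of batch A and 491 ± 48.7 CPM (SD, n = 4) among those of batch B. In Sox2-positive libraries of batch A it was 154 ± 27.6 CPM (SD, n = 6), and in those of batch B 161 ± 11.4 CPM (SD, n = 7). The makeup differed by role. The 21 inflammatory ligands summed to 97.3 and 52.5 CPM in Sox2-negative cells of batches A and B, and to 4.19 and 0.63 CPM in Sox2-positive cells. The 4 atypical receptors summed to 30.8 and 51.9 CPM in Sox2-negative and 52.5 and 86.9 CPM in Sox2-positive cells, of which Ackr3 alone supplied 49.3 and 86.3 CPM, while the means of Ackr4 and Ackr1 were lower in Sox2-positive cells. The 15 homeostatic ligands summed to 299 and 311 CPM against 73.6 and 50.1 CPM, and the 18 signalling receptors to 118 and 75.4 CPM against 24.0 and 23.3 CPM.

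**Figure D1:**
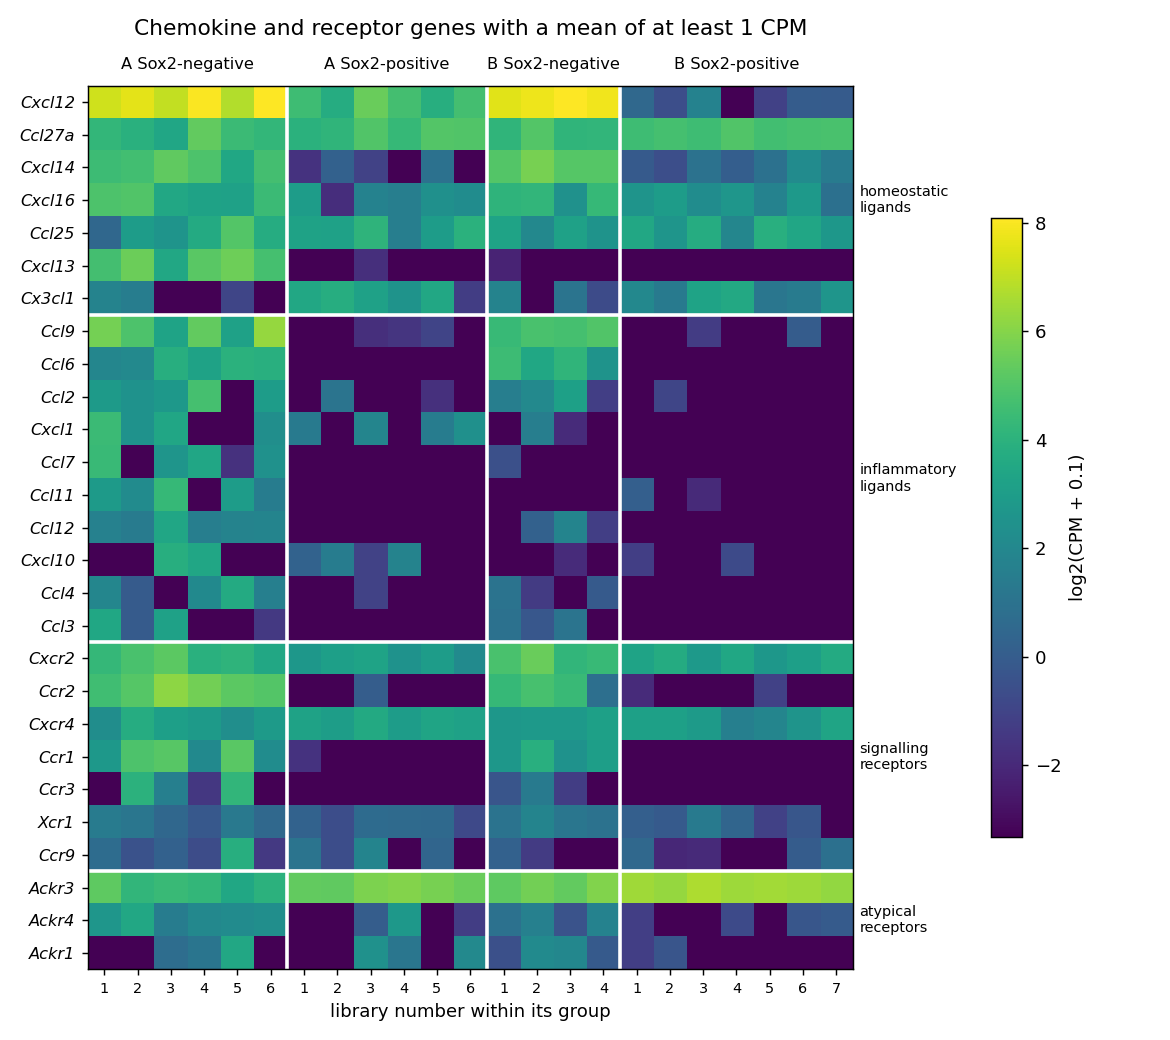
Levels of 27 members with a mean of at least 1 CPM, as log2(CPM + 0.1), in each of the 23 libraries (columns, numbered within their group); rows are grouped by role and ordered by mean level. Most inflammatory ligands are dark, at or near 0, in nearly all Sox2-positive libraries, but in batch A ones Cxcl1 reached 5.26 CPM and Cxcl10 3.32 CPM. Ackr3, Ccl27a, Ccl25, Cxcl16, Cxcr2 and Cxcr4 were detected in every library.

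Members were tested with edgeR's quasi-likelihood F test, with Benjamini-Hochberg adjustment over all genes tested and calls at an adjusted p under 0.05. Over both batches, 27 of the 58 members had enough counts to be tested, 2 were called higher in Sox2-positive cells (Ackr3 and Cx3cl1) and 18 lower. Of all 17190 genes tested, 24.9% were called higher and 32.5% lower. The median log2 difference was -3.85 over the tested members and -0.12 over all genes. A member found mainly in 1 population passes the count filter through that population, so these counts and medians describe the tested members and not the family. Called lower were 4 homeostatic ligands (Cxcl12, Cxcl13, Cxcl14 and Cxcl16), 8 inflammatory ligands (Ccl2, Ccl4, Ccl5, Ccl6, Ccl7, Ccl9, Ccl12 and Cxcl1), 5 signalling receptors (among them Ccr1, Ccr2, Ccr3 and Cxcr2) and the atypical receptor Ackr4. The 7 tested members without a call were Ackr1, Ccl11, Ccl25, Ccl27a, Cxcl10, Cxcr4 and Xcr1. Of these, Ccl11 (edgeR adjusted p 0.0571) was called lower by DESeq2 (adjusted p 0.00997) and by edgeR without batch B libraries 1 and 2 (0.000818). Leaving out 1 library at a time gave a Ccl11 call in 6 of 23 edgeR fits.

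In batch A alone, 18 members were tested, of which 2 were called higher and 11 lower, against 19.3% and 24.2% of 14296 genes. In batch B alone, 16 were tested, of which 1 was called higher and 10 lower, against 27.1% and 27.6% of 15765 genes. Ackr3 was called higher and, among others, Ccl6, Ccl9, Ccr1, Ccr2, Cxcl12, Cxcl14, Cxcl16 and Cxcr2 were called lower in each batch alone.

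Cxcl12, the ligand of Cxcr4 and Ackr3, lies on chromosome 6 (mm10, 117168535 to 117181367) and had the highest mean CPM of all members. It was measured at 108 to 270.3 CPM in batch A Sox2-negative libraries, with a median of 176 CPM, and at 13.1 to 44.0 CPM in batch A Sox2-positive libraries, with a median of 24.0 CPM. In batch B the 4 Sox2-negative libraries had 191, 222, 267 and 227 CPM, and the Sox2-positive libraries 0 to 3.22 CPM with a median of 0.864 CPM. The populations did not overlap in either batch, and the Sox2-positive libraries of batch A lay above those of batch B without overlap. The log2 difference was -2.95 (SE 0.31, edgeR adjusted p 1.53e-06) in batch A and -7.51 (SE 0.36, edgeR adjusted p 6.95e-11) in batch B. The difference between these differences was itself called, at -4.63 on the log2 scale (SE 0.53, edgeR interaction test, adjusted p 1.33e-06). Within Sox2-positive cells Cxcl12 was lower in batch B by a log2 difference of -4.35 (SE 0.40, edgeR adjusted p 1.12e-08), while within Sox2-negative cells the batch difference of 0.28 (SE 0.34, edgeR adjusted p 0.659) was not called. The Sox2-positive mean was 12.9% of the Sox2-negative mean in batch A and 0.457% in batch B. For the summed mesenchymal markers these shares were 12.7% and 5.27%, but 546 of the 674 CPM in batch B Sox2-positive cells came from Col1a2, a collagen gene whose share was 19.0% and 18.1%. Shares of the other 2 leading collagen genes were 6.82% and 0.605% (Col1a1), and 21.3% and 0.413% (Col3a1). Of the 10 mesenchymal markers, 4 had an interaction called lower and 0 called higher. Among the 4 were Col1a1 (log2 -3.51, SE 0.24, edgeR adjusted p 1.08e-10) and Col3a1 (log2 -5.54, SE 0.45, edgeR adjusted p 4.84e-09). The interaction was not called for Col1a2 (log2 -0.08), Dcn (0.60), Pdgfrb (-0.07), Lum (-0.65) or Pdgfra (-0.79). Shares of these last 4 in batches A and B were 1.77% and 2.73% (Dcn), 7.53% and 7.28% (Pdgfrb), 2.36% and 1.48% (Lum), and 22.6% and 13% (Pdgfra). Other marker sums also separated the 2 sets of Sox2-positive libraries: 6 glial markers summed to 962 to 1247 CPM in batch A and 50.8 to 83.0 CPM in batch B, with none of the 6 at 0 in every library, and 6 ameloblast markers to 289 to 349 CPM and 6.82 to 10.1 CPM, with Amtn at 0 in both and Klk4 and Enam at 0 in 1 batch each. Of the mesenchymal markers only Twist1 was at 0 in all Sox2-positive libraries. The part of these transcripts in the Cxcl12 result was not tested.

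**Figure D2:**
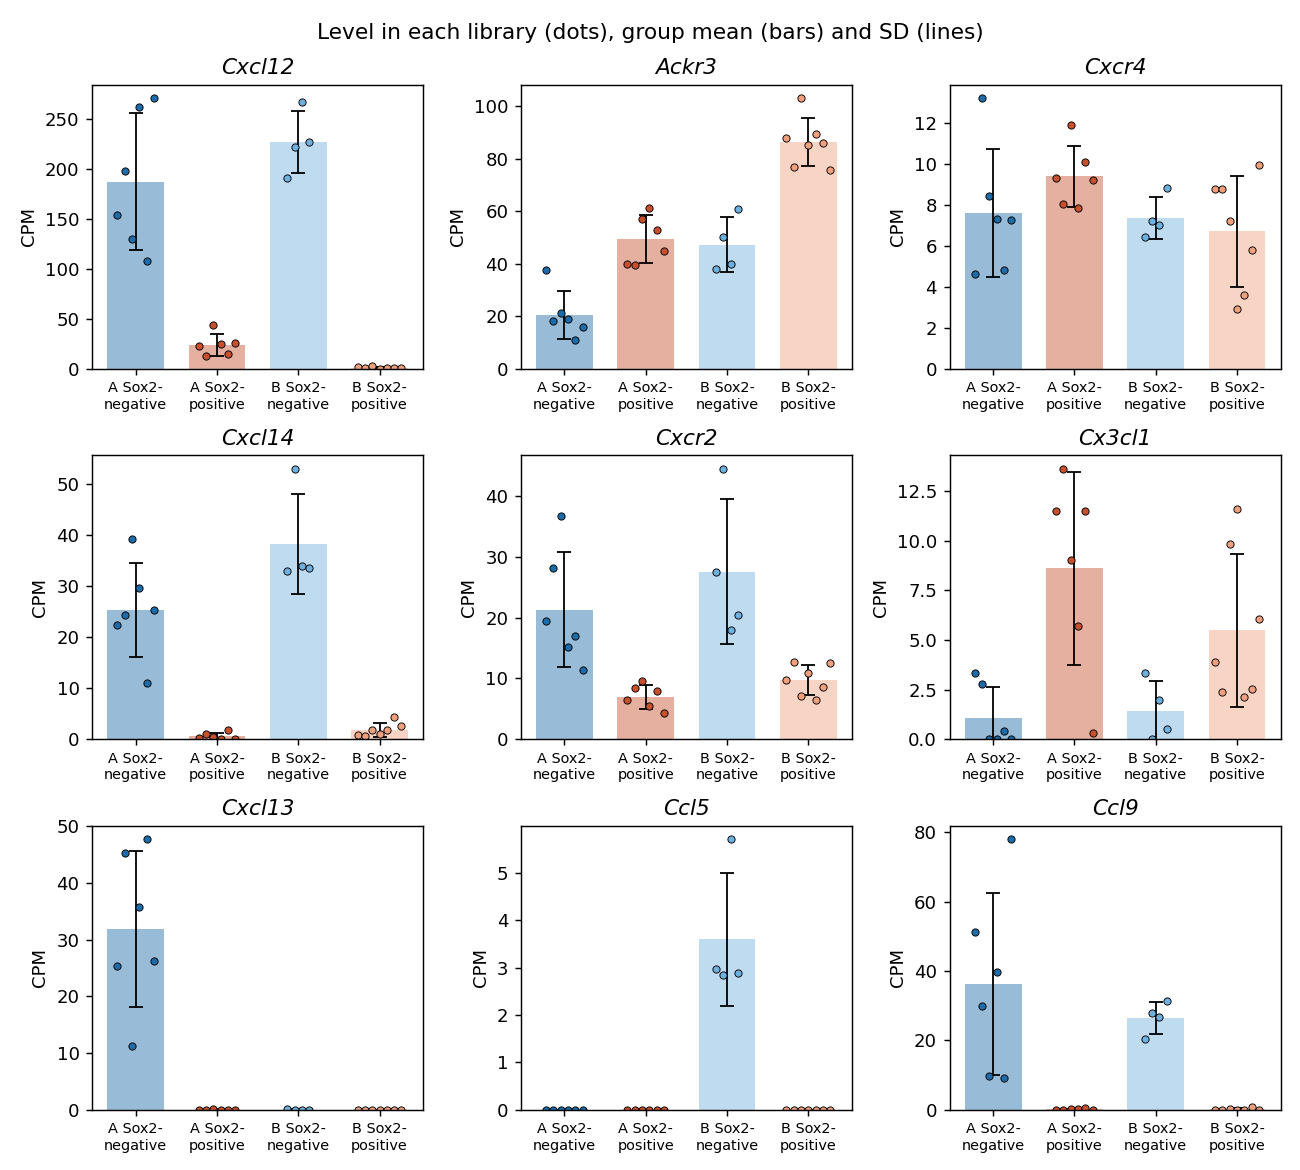
CPM of 9 members in each library (dots), with group means (bars, from 0) and SD (lines), for the 4 batch-by-population groups. Cxcl12 stands at 13.1 to 44.0 CPM in batch A Sox2-positive libraries and at 0 to 3.22 CPM in batch B ones; Ackr3 is higher in Sox2-positive cells of each batch; Cxcl13 is seen almost only in batch A Sox2-negative libraries and Ccl5 only in batch B Sox2-negative libraries.

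Ackr3, the atypical receptor that takes up Cxcl12, lies on chromosome 1 (mm10, 90203980 to 90216751). Over the 4 groups it had the highest mean of the receptors, in CPM and per kilobase. In batch A Sox2-negative cells alone, Ccr2 (41.3 CPM) and Cxcr2 (21.3 CPM) averaged more than Ackr3 (20.5 CPM). Ackr3 had 10.9 to 37.5 CPM (median 18.5) in batch A Sox2-negative libraries and 39.6 to 61.4 CPM (median 48.8) in batch A Sox2-positive libraries. In batch B it had 37.9, 50.1, 40.1 and 60.7 CPM in the 4 Sox2-negative libraries and 75.6 to 103 CPM (median 86.0) in the Sox2-positive libraries. Sox2-positive libraries lay above Sox2-negative libraries of the same batch without overlap, but batch A Sox2-positive and batch B Sox2-negative libraries covered nearly the same range. Over both batches Ackr3 was higher in Sox2-positive cells by 1.08 on the log2 scale (SE 0.16, edgeR adjusted p 3.45e-06). The log2 difference was 1.27 (SE 0.29, edgeR adjusted p 0.00227) in batch A and 0.94 (SE 0.16, edgeR adjusted p 0.000134) in batch B, and the interaction of -0.40 (SE 0.32, edgeR adjusted p 0.544) was not called. Ackr3 was also higher in batch B within each population, by 1.21 in Sox2-negative cells (SE 0.24, edgeR adjusted p 0.00125) and by 0.81 in Sox2-positive cells (SE 0.21, edgeR adjusted p 0.0105), both on the log2 scale. The summed epithelial markers had means of 281 CPM (batch A) and 518 CPM (batch B) among Sox2-negative libraries, and of 5321 and 7458 CPM among Sox2-positive ones. The part of these marker differences in the Ackr3 result was not tested.

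Cxcr4, the signalling receptor for Cxcl12, was present at similar levels throughout. It had 4.65 to 13.2 CPM (median 7.29) in batch A Sox2-negative, 7.83 to 11.9 CPM (median 9.27) in batch A Sox2-positive libraries, then 2.91 to 9.94 CPM (median 7.21) in those of batch B, and 6.42, 7.20, 7.01 and 8.84 CPM in the 4 Sox2-negative libraries of batch B. All groups overlapped. The log2 difference between populations was 0.10 (SE 0.28, edgeR adjusted p 0.776), and no call was made in either batch (0.31, SE 0.43, adjusted p 0.587 in A and -0.06, SE 0.40, adjusted p 0.907 in B). Per kilobase of the longest coding transcript, Cxcr4 stood at 5.20 and 3.72 CPM in Sox2-positive cells of batches A and B, where Ackr3 stood at 16.1 and 28.1 CPM and Cxcl12 at 4.29 and 0.184 CPM. In Sox2-negative cells the order was Cxcl12 (33.2 and 40.3 CPM per kilobase), Ackr3 (6.68 and 15.4) and Cxcr4 (4.22 and 4.08).

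Among the other homeostatic ligands, Cxcl14, an epithelial and stromal chemokine, was found mostly in Sox2-negative cells. It had 11.1 to 39.3 CPM (median 24.8) in batch A Sox2-negative libraries and 32.9, 53.0, 33.9 and 33.5 CPM in batch B ones. Sox2-positive libraries had 0 to 1.81 CPM (median 0.299) in batch A and 0.565 to 4.36 CPM (median 1.79) in batch B. The populations did not overlap, and Cxcl14 was lower in Sox2-positive cells by log2 differences of -5.37 (SE 0.78, edgeR adjusted p 4.09e-05) in batch A and -4.32 (SE 0.42, edgeR adjusted p 3.9e-07) in batch B. The interaction of 1.00 (SE 0.82, edgeR adjusted p 0.555) was not called for Cxcl14.

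Cxcl16, the ligand of Cxcr6 that also exists as a membrane-bound form, kept a larger share in Sox2-positive cells. It had 9.24 to 31.4 CPM (median 16.7) in batch A Sox2-negative libraries and 0.179 to 7.75 CPM (median 3.91) in Sox2-positive ones. In batch B the Sox2-negative libraries had 16.8, 18.0, 5.38 and 19.7 CPM and the Sox2-positive libraries 1.73 to 7.91 CPM (median 5.89). The populations were apart in batch A and overlapped in batch B, where Sox2-negative library 3 lay within the Sox2-positive range. The log2 difference was -2.23 (SE 0.63, edgeR adjusted p 0.00926) in batch A and -1.41 (SE 0.42, edgeR adjusted p 0.00936) in batch B. The batch B call for Cxcl16 was lost without batch B libraries 1 and 2 (adjusted p 0.0933). It was also lost by edgeR with same-numbered libraries as a replicate block (adjusted p 0.0907). Cxcl16 shares 552 exon bases with Zmynd15 on the other strand, so its reads are uncertain where strand was not used.

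Cx3cl1, a membrane-anchored chemokine known from epithelium, endothelium and neurons, was the only ligand called higher in Sox2-positive cells over both batches, at 2.43 on the log2 scale (SE 0.72, edgeR adjusted p 0.00556). It had 0 to 3.36 CPM (median 0.210) in batch A Sox2-negative libraries and 0.319 to 13.6 CPM (median 10.3) in batch A Sox2-positive ones. In batch B the Sox2-negative libraries had 3.33, 0, 1.96 and 0.510 CPM, and the Sox2-positive libraries 2.15 to 11.6 CPM (median 3.87). The groups overlapped in both batches, in batch A through Sox2-positive library 6 alone. In batch A the log2 difference was 2.95 (SE 1.05, edgeR adjusted p 0.0324), a call lost on leaving out any of 8 of the 12 libraries (adjusted p up to 0.0618), namely Sox2-negative library 3, 4, 5 or 6 or Sox2-positive library 1, 2, 3 or 5. Limma-voom did not make the batch A call (adjusted p 0.0804). In batch B the log2 difference was 1.97 (SE 0.82, edgeR adjusted p 0.0521) and was not called, while leaving out Sox2-negative library 1 or Sox2-positive library 2, 5 or 6 gave a call (adjusted p 0.0233 to 0.0499). The batch B difference was also called by DESeq2 (adjusted p 0.0267), limma-voom (0.042), and edgeR with total-count scaling (0.0453) or no filter beyond 1 count (0.0257).

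Cxcl13, the B-cell attractant that acts through Cxcr5, was present in a single group. Batch A Sox2-negative libraries had 11.3 to 47.7 CPM (median 31.1), while 1 count was found in all 6 batch A Sox2-positive libraries together, 1 in the 4 batch B Sox2-negative libraries and none in the 7 batch B Sox2-positive libraries. No Cxcl13 level of batch A Sox2-negative cells overlapped any other group. The ratio of the batch A Sox2-negative to the Sox2-positive level was 1021 (95% counting interval 183 to 40369; edgeR adjusted p 6.77e-08 for the population difference). The ratio of batch A to batch B within Sox2-negative cells was 896 (95% counting interval 160.4 to 35434; edgeR adjusted p 1.13e-06). The Cxcl13 interaction was not called by edgeR (adjusted p 0.999) but was by DESeq2 (adjusted p 5.47e-06), and it compares a difference with a batch in which both populations were at or near 0.

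Ccl27a and Ccl25 did not separate the populations. Ccl27a, the skin chemokine that attracts T cells through Ccr10, had the highest mean level per kilobase of the family (27.7 CPM), above Cxcl12 (19.5) and Ackr3 (16.6). Ccl27a was at 10.5 to 40.5 CPM over all Sox2-negative libraries and at 15.5 to 32.8 CPM over all Sox2-positive libraries, with overlap in both batches. Its log2 difference was 0.27 (SE 0.21, edgeR adjusted p 0.283) over both batches. In batch B it was 0.36 (SE 0.23, adjusted p 0.192), and without Sox2-negative library 2, which had 32.1 CPM, Ccl27a was called higher in Sox2-positive cells (log2 0.63, adjusted p 0.0305). Ccl25, the thymic and gut chemokine that acts through Ccr9, ran from 1.29 to 32.6 CPM in Sox2-negative and from 2.85 to 16.9 CPM in Sox2-positive libraries, with a log2 difference of 0.04 (SE 0.40, edgeR adjusted p 0.934). Ccl27a and Ccl25 share 8 and 204 exon bases with a gene on the other strand (Il11ra1 and Elavl1).

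Inflammatory ligands were led by Ccl9 and Ccl6, a pair of mouse myeloid chemokines that bind Ccr1. Ccl9 had 9.24 to 77.9 CPM (median 34.8) in batch A Sox2-negative libraries and 20.3, 27.8, 26.6 and 31.3 CPM in batch B ones, against 0 to 0.403 and 0 to 0.908 CPM in Sox2-positive libraries. The populations were far apart, with log2 differences of -7.84 (SE 0.83, edgeR adjusted p 1.61e-06) in batch A and -6.82 (SE 0.64, edgeR adjusted p 2.41e-07) in batch B. Ccl6 had 3.62 to 15.5 CPM (median 11.7) in batch A Sox2-negative libraries and 22.3, 11, 17.3 and 5.61 CPM in batch B ones, and no count in any of the 13 Sox2-positive libraries. Against the floor of 3 counts per library, Ccl6 was at least 17.2-fold lower in Sox2-positive cells in batch A (edgeR adjusted p 3.43e-05) and at least 19.5-fold lower in batch B (edgeR adjusted p 7.04e-06).

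Ccl2, Ccl7, Ccl11 and Ccl12 are neighbours on chromosome 11; Ccl2, Ccl7 and Ccl12 attract monocytes through Ccr2, and Ccl11 (eotaxin) attracts eosinophils through Ccr3. Ccl2 had 0 to 26.4 CPM (median 6.92) and 2.85, 4.05, 8.81 and 0.340 CPM in the Sox2-negative libraries of batches A and B, and was seen in 2 of 6 and 1 of 7 Sox2-positive libraries (at most 1.97 CPM). The log2 difference of Ccl2 over both batches was -4.80 (SE 0.87, edgeR adjusted p 3.48e-05). Ccl7, Ccl11 and Ccl12 had no count in the 6 batch A Sox2-positive libraries. In batch A Sox2-negative libraries Ccl7 had 0 to 20.9 CPM (median 5.72), Ccl11 0 to 20.0 CPM (median 5.86) and Ccl12 2.56 to 10.5 CPM (median 3.23). They were therefore at least 12.2-fold, 11.9-fold and 7.29-fold lower in batch A Sox2-positive cells on average. Ccl12 was tested in batch A alone and was called (edgeR adjusted p 0.000107), while Ccl7 and Ccl11 did not pass the count filter there.

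Within Sox2-negative cells, 27 members were tested between the batches, and 2 were called higher in batch B (Ackr3 and Ccl5) and 2 lower (Ccl11 and Cxcl13), against 5.85% and 5.35% of 17190 genes. Ccl11 had no count in the 4 batch B Sox2-negative libraries and was at least 15.6-fold lower there than in batch A (edgeR adjusted p 0.00641), a call lost without batch B libraries 1 and 2 (adjusted p 0.0665). Ccl7 had 0.594 CPM in 1 batch B Sox2-negative library and 0 in the other 3, and its batch difference was not called (edgeR adjusted p 0.0566). It was called for Ccl7 by DESeq2 (adjusted p 0.0319), limma-voom (0.0286), with total-count scaling (0.0487) or no filter beyond 1 count (0.0211), and without batch A Sox2-negative library 2 (0.0266) or 5 (0.0383). Ccl12 had 0, 1.05, 3.42 and 0.340 CPM in these libraries (edgeR adjusted p 0.328 for the batch difference). The 6 members of this chromosome 11 stretch (82035571 to 82305690) summed to 29.9 ± 14.8 CPM (SD, n = 6) among Sox2-negative libraries of batch A and 5.36 ± 4.93 CPM (SD, n = 4) among those of batch B, and their ranges of 14.3 to 48.3 and 0.680 to 12.2 CPM did not overlap. The 5 members of the neighbouring stretch (83525778 to 83664683), Ccl5, Ccl9, Ccl6, Ccl3 and Ccl4, summed to 54.1 ± 24.6 and 46.0 ± 5.24 CPM in the same groups, with overlapping ranges.

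Ccl5, a T-cell and macrophage product just under the 1 CPM limit, went the other way from Ccl11. It had 2.97, 2.85, 5.71 and 2.89 CPM in the 4 batch B Sox2-negative libraries and no count in the other 19 libraries. Within Sox2-negative cells Ccl5 was at least 4.88-fold higher in batch B (edgeR adjusted p 0.00567), a call lost without batch B libraries 1 and 2 (adjusted p 0.0664) and not made by DESeq2 (adjusted p 0.102). Within batch B it was at least 5.01-fold lower in Sox2-positive cells (edgeR adjusted p 9.64e-05; 0.00406 without those libraries). The population call for Ccl5 over both batches (edgeR adjusted p 0.000429) was not made by DESeq2 (adjusted p 0.0743). Marker sums of blood and vessel cells differed between the batches in Sox2-negative libraries: 8 neutrophil markers summed to 3904 to 4633 CPM in A and 619 to 739.9 CPM in B, 8 macrophage markers to 272 to 379 and 82.8 to 153 CPM, 8 mast cell markers to 853 to 1094 and 42.4 to 76.1 CPM, 8 T and NK cell markers to 8.17 to 31.2 and 4.08 to 15 CPM, 5 B cell markers to 70.4 to 109.7 and 31.0 to 52.8 CPM, 6 dendritic cell markers to 94.5 to 158 and 26.3 to 53.4 CPM, and 8 endothelial markers to 973 to 1419 and 262 to 418 CPM. Of the 19.8 CPM that the T and NK cell markers averaged in A, Nkg7 supplied 12.5 CPM (3.13 CPM in B). Means were also lower in B for Il7r (4.65 CPM in A, 1.4 in B), Cd3d (1.17 and 0.327), Cd8a (0.511 and 0.163) and Cd3e (0.394 and 0.0783). They were higher in B for Cd3g (0.0879 and 1.89 CPM), Cd4 (0.368 and 1.63) and Klrb1c (0.0875 and 0.102). Only Nkg7 and Il7r had enough counts to be tested. In batch B Sox2-negative libraries Cd3g ranged from 0.17 to 5.54 CPM and Cd4 from 0 to 5.7 CPM. The 7 erythroid markers summed to 985 to 1188 CPM in A and 53611 to 62038 CPM in B, and 7 pericyte and smooth muscle markers stood at 613 to 941 and 478 to 530.0 CPM. In these libraries Fcer1a was at 0 in both batches and Cd209a in batch A, and no other marker of these lists was at 0 throughout a group. Their part in the batch differences of Ccl5, Ccl11 and Cxcl13 was not tested.

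Cxcl1, which attracts neutrophils through Cxcr2, and Cxcl10, the interferon-induced ligand of Cxcr3, were higher on average in batch A in both populations. Cxcl1 had 0 to 22.0 CPM (median 5.20) in batch A Sox2-negative and 0 to 5.26 CPM (median 2.53) in batch A Sox2-positive libraries, 0, 2.85, 0.163 and 0 CPM in the Sox2-negative libraries of batch B, and no count in the 7 batch B Sox2-positive libraries. The populations overlapped in both batches. Within Sox2-positive cells Cxcl1 was at least 3.22-fold lower in batch B (edgeR adjusted p 0.0218), a call lost without batch B libraries 1 and 2 (adjusted p 0.062). Its population call over both batches (log2 -2.45, SE 0.95, edgeR adjusted p 0.0299) was lost without those libraries (adjusted p 0.182), without batch A Sox2-negative library 1 (0.0881) or without batch B Sox2-negative library 2 (0.149). That call was also lost by limma-voom (adjusted p 0.306) and by edgeR with the replicate block (adjusted p 0.223). Cxcl10 was found at 14.0 and 10.7 CPM in 2 batch A Sox2-negative libraries and at 0 in the other 4, at up to 3.32 CPM when Sox2-positive in batch A, and at up to 0.485 CPM throughout batch B. The population difference of Cxcl10 (log2 -0.93, SE 1.20, edgeR adjusted p 0.523) was not called, nor was its difference between batches within Sox2-negative cells (ratio of A to B 103, 95% counting interval 18.1 to 4125, edgeR adjusted p 0.0501). Without batch A Sox2-negative library 1, 2, 5 or 6 the latter was called (adjusted p 0.0335 to 0.0351). This batch difference was also called by DESeq2 (adjusted p 0.0302), and by edgeR with RLE scaling (0.0493), total-count scaling (0.0444) or no filter beyond 1 count (0.0259). Cxcl10 shares 133 exon bases with Art3 on the other strand.

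Both Cxcl1 and Cxcl10 are textbook targets of the transcription factor NF-kB, and the 250 bases before the RefSeq start of each hold its motif, as does Ccl9, the most abundant inflammatory ligand. They are shown 5′ to 3′ on the gene's strand (RefSeq, GRCm38.p6), with matches to the NF-kB motif on either strand in capitals and overlapping matches merged, at chr5:90890995-90891244 (Cxcl1, plus strand), chr5:92348890-92349139 (Cxcl10, minus strand) and chr11:83578637-83578886 (Ccl9, minus strand).
Cxcl1: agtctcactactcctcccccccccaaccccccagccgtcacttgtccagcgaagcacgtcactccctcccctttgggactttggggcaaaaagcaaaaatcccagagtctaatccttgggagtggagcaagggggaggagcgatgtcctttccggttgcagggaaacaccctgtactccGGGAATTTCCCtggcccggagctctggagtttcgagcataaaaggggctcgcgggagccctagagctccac
Cxcl10: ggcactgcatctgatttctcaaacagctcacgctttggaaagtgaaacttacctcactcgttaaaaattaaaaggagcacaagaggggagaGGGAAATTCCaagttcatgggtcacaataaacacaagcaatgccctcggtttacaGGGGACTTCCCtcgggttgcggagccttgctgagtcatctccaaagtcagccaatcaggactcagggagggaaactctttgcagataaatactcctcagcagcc
Ccl9: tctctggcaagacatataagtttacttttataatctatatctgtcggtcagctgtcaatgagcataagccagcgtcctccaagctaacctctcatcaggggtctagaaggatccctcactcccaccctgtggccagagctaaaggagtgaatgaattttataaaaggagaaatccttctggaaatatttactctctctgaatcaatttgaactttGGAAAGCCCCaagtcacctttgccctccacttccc
RefSeq promoters were matched for 22 of the 28 members, 25 promoters in all, and 5 of the 25 (20%, those of Ccl9, Ccr1, Ccr3, Cxcl1 and Cxcl10) held the motif, against 7.25% of 32851 promoters of the same length. The motif of the myeloid factor PU.1 (GAGGAAGT, both strands) was in 0 of the 25 and in 2.44% of all. A match describes the letters in these windows and is not a measured binding site. Of these 5, Ccl9, Ccr1, Ccr3 and Cxcl1 were called lower in Sox2-positive cells over both batches, and Cxcl10 (log2 -0.93) was not called. Beside them, 18 of all 27 tested members and 32.5% of all genes tested were called lower. A link between the motif and these calls was not tested.

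Ccl3 and Ccl4, macrophage products, were the detailed members closest to the 1 CPM limit, with means of 1.18 and 1.22 CPM, and Ccl5 (0.901 CPM) and Ackr2 (0.652 CPM) lay just under it. Ccl4 had 0 to 12.6 CPM (median 3.29) and 1.90, 0.300, 0 and 0.850 CPM in the Sox2-negative libraries of batches A and B, and 2 counts in all Sox2-positive libraries together. The log2 difference of Ccl4 over both batches was called (edgeR adjusted p 8.67e-06), and the batch A ratio was 65.8 (95% counting interval 17.8 to 550.1). Ccl3 did not pass the count filter; it had 0 to 11.1 CPM and 1.78, 0.750, 1.96 and 0 CPM in the Sox2-negative libraries of batches A and B and no count in Sox2-positive ones.

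Among the signalling receptors, Ccr2, the monocyte receptor for Ccl2, had 24.0 to 70.7 CPM (median 35.2) in batch A Sox2-negative libraries and 19.6, 27.0, 21.2 and 1.70 CPM in batch B ones. In Sox2-positive libraries Ccr2 was seen in 1 of 6 (0.941 CPM) and 2 of 7 (at most 0.359 CPM). The populations did not overlap for Ccr2, with a log2 difference of -7.77 in batch A (SE 0.80, edgeR adjusted p 1.09e-06) and a ratio of 307 in batch B (95% counting interval 84.5 to 2540, edgeR adjusted p 1.42e-06). Ccr1, a myeloid receptor for Ccl9, Ccl6, Ccl3 and Ccl5, had 4.18 to 35.7 CPM (median 18.3) and 6.54, 14.4, 5.54 and 8.33 CPM in the Sox2-negative libraries, and 1 count in the 13 Sox2-positive libraries together. The batch A ratio of Ccr1 was 629 (95% counting interval 112 to 24884, edgeR adjusted p 6.74e-06), and in batch B it was at least 12.1-fold lower in Sox2-positive cells (edgeR adjusted p 1.57e-05). Ccr3, the eosinophil receptor for Ccl11, ranged widely within batch A Sox2-negative libraries (0 to 17.9 CPM, median 1.58), had 0.713, 2.40, 0.326 and 0 CPM in batch B ones and no count in Sox2-positive cells (at least 10.3-fold lower in batch A; edgeR adjusted p 0.000527 over both batches).

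Cxcr2, the neutrophil receptor for Cxcl1 and related ligands, was lower in Sox2-positive cells but present in all of them. It had 11.3 to 36.7 CPM (median 18.2) in batch A Sox2-negative and 4.30 to 9.59 CPM (median 7.14) in batch A Sox2-positive libraries. In batch B it had 27.5, 44.4, 17.9 and 20.4 CPM in Sox2-negative and 6.46 to 12.7 CPM (median 9.77) in Sox2-positive libraries. The populations did not overlap, and the log2 difference of Cxcr2 was -1.59 (SE 0.41, edgeR adjusted p 0.00473) in batch A and -1.43 (SE 0.30, edgeR adjusted p 0.000736) in batch B. The Sox2-positive mean was 32.9% and 35.2% of the Sox2-negative mean, whereas for the 8 neutrophil markers it was 0.0156% and 0.0108%. Those markers summed to at most 1.33 CPM in Sox2-positive libraries, with Elane, Ltf and Retnlg at 0 in batch A and 7 of the 8 at 0 in batch B. The cell source of Cxcr2 in Sox2-positive libraries was not tested.

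**Figure D3:**
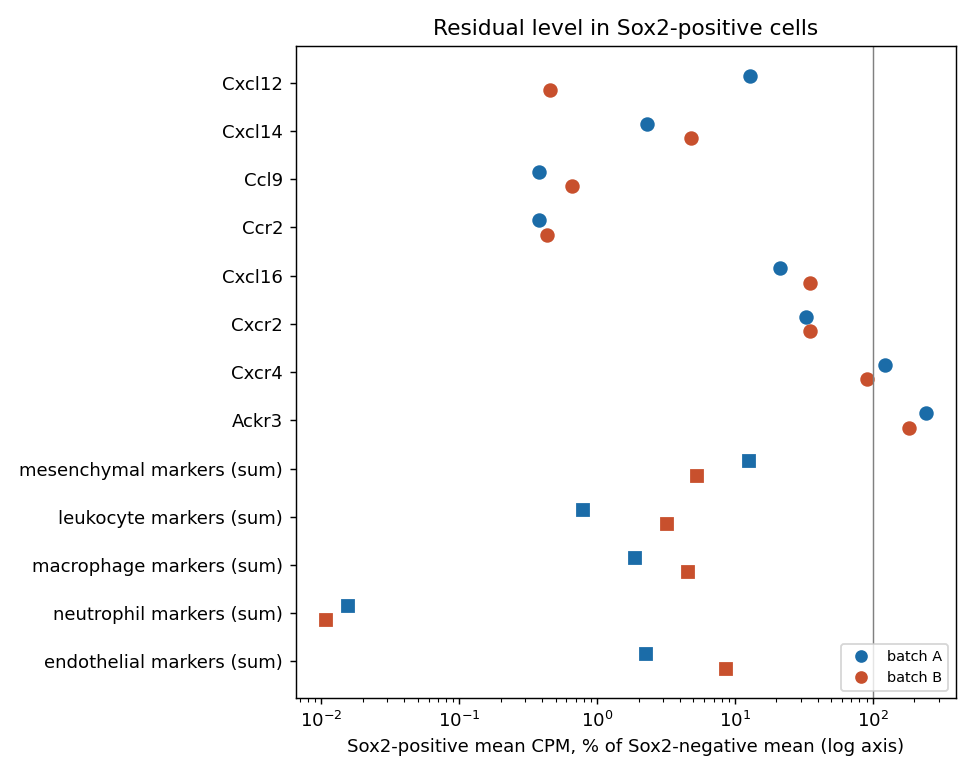
Mean CPM in Sox2-positive libraries as a percentage of the mean in Sox2-negative libraries of the same batch (log axis; the line marks 100%), for 8 members (circles) and the summed level of 5 marker lists (squares). Cxcr2 stands at 32.9% and 35.2% where neutrophil markers stand at 0.0156% and 0.0108%, and Cxcl12 at 12.9% in batch A and 0.457% in batch B; the batch B mesenchymal sum, at 5.27%, is mostly Col1a2.

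The remaining signalling receptors were low. Xcr1, found on cross-presenting dendritic cells, had 0.785 to 3.45 CPM in Sox2-negative and 0 to 2.45 CPM in Sox2-positive libraries, and its log2 difference of -0.95 (SE 0.47, edgeR adjusted p 0.0836) was not called. Ccr9, the receptor for Ccl25, did not pass the count filter; it had 14.1 CPM in batch A Sox2-negative library 5 and at most 3.39 CPM in the other 22 libraries, and overlaps other genes on both strands.

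Ackr4 and Ackr1, scavengers of homeostatic CC ligands and of many inflammatory ligands, did not follow Ackr3. Ackr4 had 2.64 to 11.3 CPM (median 4.62) and 1.78, 3.00, 0.652 and 3.23 CPM in Sox2-negative libraries, and was called lower in Sox2-positive cells over both batches (log2 -2.33, SE 0.75, edgeR adjusted p 0.0101), a call lost without batch B libraries 1 and 2 (adjusted p 0.0537). In batch A the Ackr4 difference of -2.09 (SE 1.06, edgeR adjusted p 0.123) was not called. It was called by limma-voom (adjusted p 0.00505) and by edgeR with the replicate block (adjusted p 0.0483). Sox2-positive library 4 had 6.64 CPM and the other 5 had at most 0.941 CPM, and without library 4 the log2 difference was -4.28 (adjusted p 0.00337). Ackr1, the Duffy receptor of venules and erythroid cells, had 0 to 11.3 CPM in batch A Sox2-negative, 0 to 5.27 CPM in batch A Sox2-positive and 0 to 0.706 CPM in batch B Sox2-positive samples, and 0.594, 4.35, 3.75 and 0.850 CPM in the Sox2-negative libraries of batch B (log2 -1.80, SE 1.01, edgeR adjusted p 0.129, not called). Ackr1 shares 361 exon bases with Cadm3 on the same strand and Ackr4 479 with Acad11 on the other, which makes both levels uncertain.

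**Figure D4:**
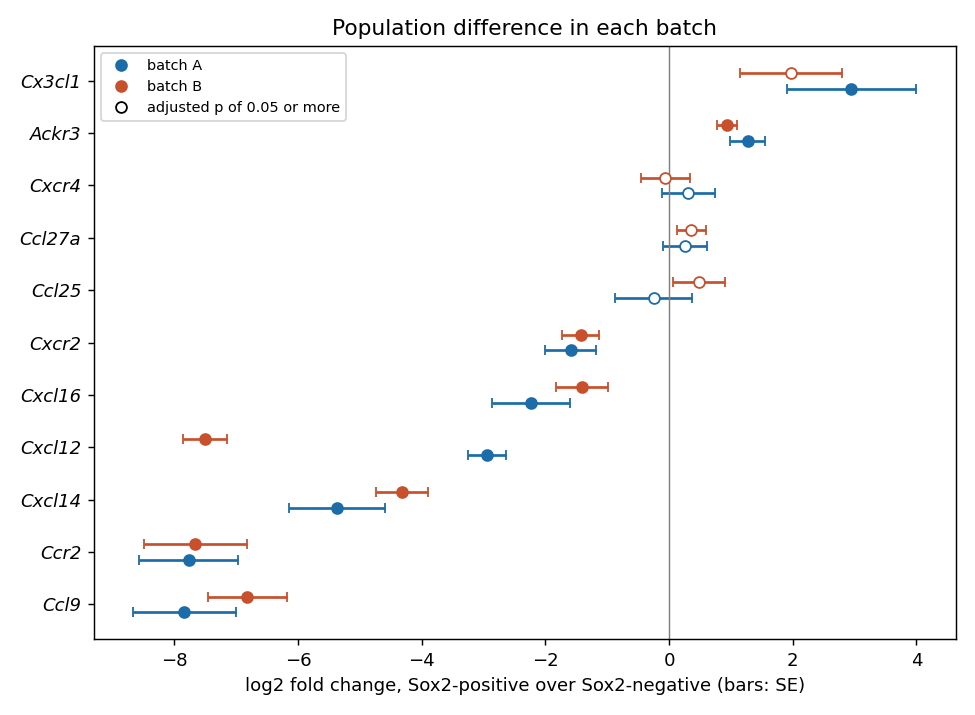
Log2 fold change of Sox2-positive over Sox2-negative cells in batch A (blue) and batch B (orange), with SE bars, for 11 members tested in both batches with no group at 0; open symbols have an adjusted p of 0.05 or more. Cxcl12 is the member whose batches are farthest apart (-2.95 and -7.51), and Ackr3 lies above 0 in both.

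The difference between batches in the population effect was called for 2 of the 27 members tested, Ccl11 higher and Cxcl12 lower, against 2.82% and 4.22% of 17190 genes. For Ccl11, 2 of the 4 groups had no count: Ccl11 was found in batch A Sox2-negative cells and, at 1.01 and 0.153 CPM, in Sox2-positive libraries 1 and 3 of batch B, so its fitted value of 11.28 depends on the prior count and is no measured fold. The Ccl11 call (edgeR adjusted p 0.00549) was lost without batch B Sox2-positive library 1 (0.0566) and without batch B libraries 1 and 2 (0.12). With the replicate block it was also lost (edgeR adjusted p 0.0904). Within Sox2-positive cells, 1 of 27 members was called higher in batch B (Ackr3) and 2 lower (Cxcl1 and Cxcl12), against 4.85% and 5.54% of 17190 genes.

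Of the 30 members under 1 CPM, 5 had no count in any library (Ccl20, Ccl21b, Ccl24, Ccl26 and Xcl1). Means of the other 25 ran up to 0.901 CPM, near or under the floor of 3 counts, so a difference between groups was not detectable for most of them. By role, these 30 were 8 of 15 homeostatic ligands, 11 of 21 inflammatory ligands, 10 of 18 signalling receptors and 1 of 4 atypical receptors.

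A list of 37 genes that transmit or shape chemokine signals placed the members in their pathway. Over both batches 35 were tested, 5 were called higher in Sox2-positive cells and 24 lower, at a median log2 difference of -2.06, beside 24.9% and 32.5% of all genes and their median of -0.12. In batch A 3 of 30 were called higher and 17 lower, beside 19.3% and 24.2% of all genes, and in batch B 5 of 30 higher and 17 lower, beside 27.1% and 27.6%. Gnb1, a G-protein beta subunit used by many receptors, had the highest mean of the list over the 4 groups and was higher in Sox2-positive cells. In batch A it had 784 ± 48.2 against 448 ± 59.8 CPM (SD, n = 6 each). Over both batches its log2 difference was 0.90 (SE 0.07, edgeR adjusted p 1.77e-11). Gnai2, the main Gi alpha subunit of chemokine receptors in leukocytes, was at 406 to 469 CPM as group means (log2 -0.11, SE 0.08, edgeR adjusted p 0.245). The heparan sulphate proteoglycans, which hold chemokines at the cell surface, were called in opposite directions over both batches: Sdc4 was higher in Sox2-positive cells (log2 0.72, SE 0.09, edgeR adjusted p 3.5e-07) and Sdc1 lower (log2 -0.63, SE 0.13, edgeR adjusted p 0.000162). The Sdc1 difference was called in batch B (means of 183 against 383 CPM, edgeR adjusted p 6.01e-05) and not in batch A (166 against 196 CPM, log2 -0.23, SE 0.12, edgeR adjusted p 0.152), and the interaction was called (-0.84, SE 0.20, edgeR adjusted p 0.00953).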

How the data were processed

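RNA was measured by Smart-seq2 in 23 libraries. The authors deposited expected counts (estimated counts) per gene with no depth scaling. The submitters' processing notes name FastQC, Trimmomatic and Salmon and the build mm10, without versions; the annotation and strand setting are not given in the sources used here. No value was a whole number although column totals lay within 0.111 of one, and values were rounded before testing. Symbols came from GENCODE M21 (99.5% of identifiers matched without version).

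Tests used edgeR 4.0.16 in R 4.3.3: TMM scaling, the quasi-likelihood F test, and filterByExpr at its minimum count of 10, with p adjusted over all genes tested. Populations were compared over all libraries with batch as a covariate and batch by batch; the interaction and the batch differences came from a fit of the 4 group means. DESeq2 1.42.0, limma 3.58.1 (voom with quality weights), other scalings and filters, a replicate block, and left-out libraries were alternatives. Counting intervals are exact binomial at 95%, with a floor of 3 counts. The fits were tested on simulated data.

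Named genes were Sox2, every member with a mean of at least 1 CPM and those just under it by value, the 4 most abundant genes of the pathway list, and Pf4, Ppbp, Dpp4, Rarres2, Cmklr1 and Ccrl2. Of the members with a mean of at least 1 CPM, 1 is counted in the totals but not reported here. Other members are named only in counts, stretches of the genome or as undetected. The members and lists were chosen with earlier results of these data known.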

Additional observations from a re-analysis of the deposited data

Results flagged for a closer look

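In 16 of 87 combinations of member and group, 1 library stood apart from the rest by Dixon's test at 95%. Its chance rate of about 1 in 20 assumes normal values, so it is no measure of excess for low counts with many zeros. Most of the 16 involve few counts. Batch B Sox2-negative library 2 was high for Ccl27a (32.1 CPM against 17.5 to 18.2 in the others), Cxcl14 (53.0 against 32.9 to 33.9), Xcr1 (3.45 against 1.87 to 2.12) and Cxcl1 (2.85 against at most 0.163). Batch A Sox2-negative library 5 was high for Ackr1 (11.3 CPM against at most 2.09), Ccr9 (14.1 against at most 1.55) and Ccl4 (12.6 against at most 4.18). Also high in batch A Sox2-negative cells were Ccl2 in library 4 (26.4 CPM) and Ccl12 in library 3 (10.5 CPM). In batch A Sox2-positive cells these were Ackr4 in library 4 (6.64 CPM), Ccl2 in library 2 (1.97 CPM) and Ccr2 in library 3 (0.941 CPM, 5 counts). In batch B they were Ccl7 in Sox2-negative library 1 (0.594 CPM, 5 counts) and, in Sox2-positive cells, Cxcl12 in library 3 (3.22 CPM), Ccl11 in library 1 (1.01 CPM) and Ccl9 in library 6 (0.908 CPM).

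The population effect differed between the batches by edgeR's interaction test for Cxcl12 (-4.63 on the log2 scale, adjusted p 1.33e-06) and Ccl11 (fitted 11.28, adjusted p 0.00549). For Cxcl12 all 8 other settings gave a call, with values from -5.21 to -4.56, as did leaving out each of the 23 libraries (-5.32 to -4.38).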

How the results depend on the processing

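With no filter beyond 1 count, called members rose from 13 to 22 in batch A, from 11 to 22 in batch B and from 4 to 7 between batches within Sox2-negative cells, where more members were tested (52, 45 and 53). With a filter at a mean of 10 counts, which tested 18 members, the interaction gave 1 call in place of 2 and the batch comparison within Sox2-negative cells 2 in place of 4. Limma-voom with quality weights called 4 members for the interaction. Without batch B libraries 1 and 2 the interaction gave 1 call and the batch comparison within Sox2-negative cells 2; the cause was not tested. Leaving out 1 library at a time gave 1 to 2 calls for the interaction. At a minimum mean of 2 CPM, 18 members would be described in place of 28. Whether same-numbered libraries of the populations share a mouse or a preparation is not stated. They correlated at -0.03 to 0.06 over 15335 genes, which cannot show that they were unpaired. With the replicate block the calls were 19 over both batches, 13 in A, 9 in B and 1 for the interaction. No block can be fitted between batches. Total-count scaling moved the median of all genes from -0.12 to 0.00 over both batches and to -0.15 between batches within Sox2-negative cells. Of 130 results on single detailed members, 112 stayed on their side of the threshold in all settings and left-out libraries, and none reversed with a call. Members under about 1 CPM are limited by depth.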

Other observations

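Other genes tied to chemokine or chemerin handling gave these values. Pf4, a platelet chemokine outside the symbol rule, had 20.1 ± 7.08 CPM (SD, n = 6) among Sox2-negative libraries of batch A and 5.47 ± 2.81 CPM (SD, n = 4) among those of batch B, and at most 0.474 CPM in Sox2-positive libraries (edgeR adjusted p 1.2e-11 over both batches). Rarres2, which encodes chemerin, had 16.7 ± 9.43 CPM in Sox2-negative and 23.7 ± 7.48 CPM in Sox2-positive libraries of batch A (SD, n = 6 each). In batch B Rarres2 had 7.86 ± 2.48 CPM (SD, n = 4) and 1.09 ± 0.925 CPM (SD, n = 7), and the population effect differed between the batches (log2 -3.36, SE 0.76, edgeR interaction test, adjusted p 0.00562). Its receptor Cmklr1 averaged 0.833 and 1.41 CPM in Sox2-negative cells and had no count in Sox2-positive ones. Ccrl2, a chemerin-binding receptor, was lower in Sox2-positive cells over both batches (log2 -3.08, SE 1.14, edgeR adjusted p 0.0228). Dpp4, a protease that trims chemokines, was not called (log2 1.45, SE 0.98, edgeR adjusted p 0.21), and Ppbp was seen in 1 group alone, at a mean of 0.0241 CPM.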
